A study of Mus musculus with 4 samples.

Results

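The primitive streak and early mesoderm factors described here are 7 genes, T (Brachyury), Mesp1, Mesp2, Eomes, Mixl1, Gsc and Msgn1, and the SCL peaks that lie at them. A peak was assigned to a gene if a transcription start site (TSS) of that gene was the nearest protein-coding TSS to the peak summit, or if any base of the peak lay within 10 kb of the gene body. These rules gave 10 of the 12885 peaks of the list, at 4 of the 7 genes, out of 22367 protein-coding genes annotated. No value of the peaks was used to assign them.

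SCL (gene symbol Tal1) is needed for blood formation and belongs to the basic helix-loop-helix family of transcription factors. Its binding was measured by chromatin immunoprecipitation and sequencing (ChIP-seq) in the wild-type mouse embryonic stem (ES) cell line J1, differentiated as embryoid bodies. The line and genotype come from the study's methods and the peak names, and the strain, C57Bl/6 X Sv129, from the labels. Cells positive for the receptor FLK1, which marks mesoderm that includes cells with blood and vessel potential, were sorted at day 3.5. Selection was on FLK1 alone. The study describes several mesodermal potentials in FLK1+ cells that also carry the receptor PDGFRα. The series holds 2 libraries made with an in-house rabbit SCL antiserum and 2 input libraries without antibody. The labels name no mutation or treatment in either group, nor whether the replicates came from separate cultures. The list is a single call on the merged libraries, so values carry no error between replicates, and the depth of each library is unknown here. Intervals are 95% Poisson intervals of the fragments stacked at the summit and cover counting error only. For the fold, the local background was held fixed, so its own counting error is left out and the fold intervals are too narrow. In a sorted bulk population, binding in fewer cells and weaker binding in each cell cannot be told apart. The study also sequenced RNA of wild-type and Scl-null FLK1+ cells at day 3.5. No expression values were used here, so the FLK1+ identity of the cells was not checked.

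Gastrulation begins when Nodal and Wnt signals pattern the epiblast and cells leave it through the primitive streak. The T-box factors Brachyury and EOMES act early in this step, and EOMES also activates Mesp1. MESP1 marks the earliest cardiovascular mesoderm, and MESP2 patterns the somites. The homeodomain factors MIXL1 and goosecoid act in mesendoderm and in the anterior streak and organiser, and mesogenin (Msgn1) directs presomitic mesoderm. The study asked how SCL promotes blood fate and restrains other mesodermal fates, and these genes belong to the mesodermal state from which those fates part.

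Eomes had 5 peaks, T had 3, and Mesp1 and Mixl1 had 1 each. No peak was nearest to Mesp2, Gsc or Msgn1. At least 1 nearest peak was thus found for 4 of the 7 genes, beside 28.9% of all coding genes. Eomes, with 5, lay in the 2.11% of coding genes with 5 or more, and T and Eomes in the 6.54% with 3 or more. Only T and Mesp1 had a peak within 10 kb of the gene body, 2 of 7 genes, beside 25.5% of coding genes. None of the 7 had a summit within 1 kb of a TSS, where 4.25% of coding genes did.

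**Figure D1:**
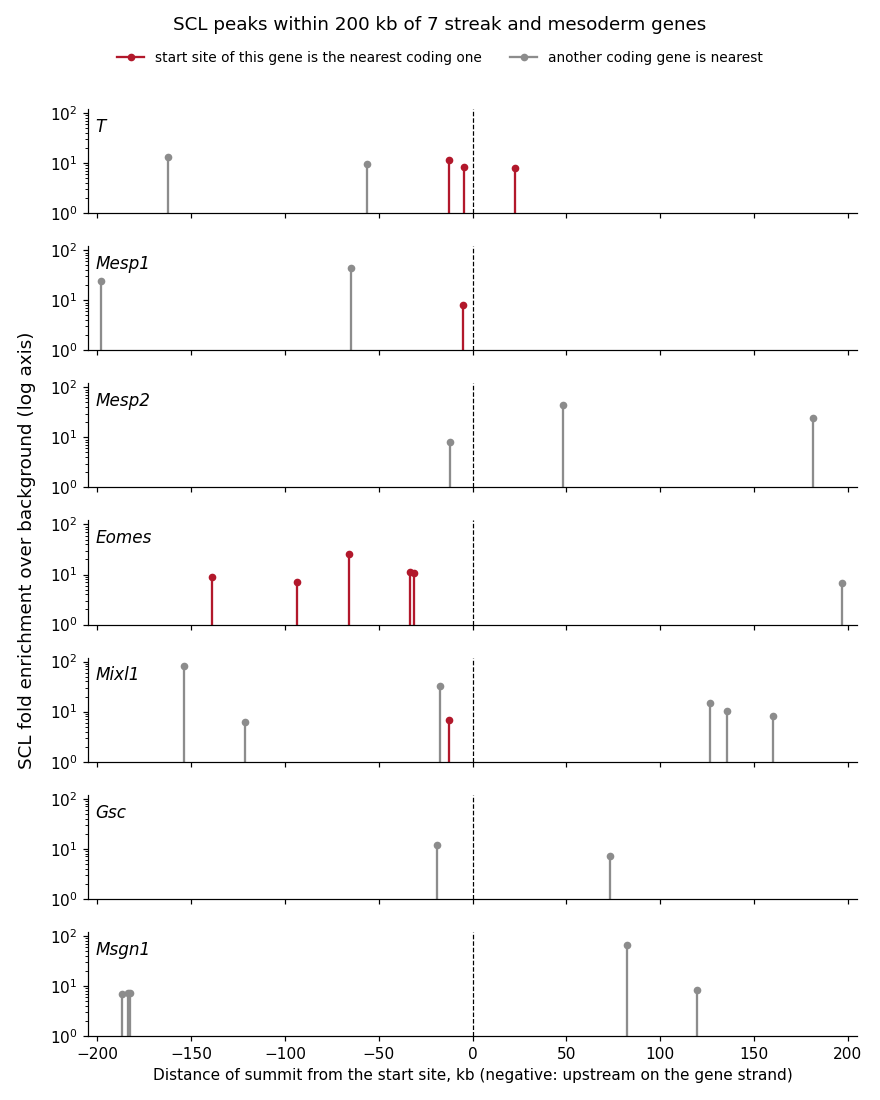
SCL peaks within 200 kb of the TSS of each gene. The horizontal axis gives the distance of the summit in kb, with upstream to the left, and the vertical log axis the fold enrichment. Red peaks have the gene as the nearest coding gene and grey peaks have another. The 5 red peaks of Eomes are all upstream, and no red peak stands at Mesp2, Gsc or Msgn1.

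The summit sequences shown next are those within 10 kb of a gene, the strongest peak of Eomes with the other Eomes peak that carries a composite motif, the Mixl1 peak, and a pair of strong peaks beside Mixl1 and Mesp2 that are described further on. Each is 101 bases of the NCBIM37 (mm9) plus strand centred on the summit. Capitals mark the GATA motif (GATA with A or T before it and A or G after it, on either strand), the E-box CANNTG, and the CTG and GATA letters of the composite in which they lie 7 to 9 bases apart.
T peak 2, chr17:8622470-8622570: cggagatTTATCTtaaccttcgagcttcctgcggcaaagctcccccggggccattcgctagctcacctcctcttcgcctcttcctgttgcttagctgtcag
Mesp1 peak, chr7:86943722-86943822: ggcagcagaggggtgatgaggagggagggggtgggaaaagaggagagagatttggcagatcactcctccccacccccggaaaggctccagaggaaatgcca
Eomes peak 1, chr9:118248327-118248427: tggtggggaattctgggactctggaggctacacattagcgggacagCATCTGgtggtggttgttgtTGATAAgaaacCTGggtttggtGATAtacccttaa
Eomes peak 3, chr9:118321630-118321730: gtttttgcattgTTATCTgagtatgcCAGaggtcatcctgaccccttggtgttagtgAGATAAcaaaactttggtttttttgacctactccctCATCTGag
Mixl1 peak, chr1:182639631-182639731: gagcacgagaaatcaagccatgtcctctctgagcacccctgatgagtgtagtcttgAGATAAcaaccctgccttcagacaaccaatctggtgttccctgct
Acbd3 peak beside Mixl1, chr1:182644378-182644478: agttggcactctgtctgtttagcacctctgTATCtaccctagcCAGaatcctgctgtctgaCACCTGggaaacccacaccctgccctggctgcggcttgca
Anpep peak beyond Mesp2, chr7:87003529-87003629: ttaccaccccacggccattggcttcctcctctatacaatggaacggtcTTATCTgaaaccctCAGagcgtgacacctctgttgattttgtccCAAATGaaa

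Eomes (chromosome 9, 118387330 to 118395250, plus strand) had the most peaks nearest to its TSSs of the 7 genes and the highest sum of fragments at their summits, 340. Its 5 peaks lay upstream in intergenic sequence, in the gap of 328.1 kb that separates Eomes from Cmc1, with summits at 139.0, 93.4, 65.7, 33.3 and 31.4 kb from a TSS. They are numbered 1 to 5 from far to near. Peak 3, at 118321274 to 118321905, was the strongest peak of all 7 genes, with a fold enrichment over local background of 25.6 (interval 21.8 to 29.9) from 159 fragments. In the list, 18.4% of peaks had a higher fold. It held 26.4% of the 602 fragments summed over the 10 summits.

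The remaining Eomes peaks were weaker. Peak 4 (118353716 to 118354273) had a fold of 11.2 from 50 fragments and peak 5 (118355705 to 118356270) a fold of 10.6 from 54 fragments. Their summits were 1843 bp apart, the closest pair among the 10. Peak 1 (118248189 to 118248620) had a fold of 8.91 from 34 fragments and peak 2 (118293798 to 118294068) a fold of 7.05 from 43 fragments. The intervals of these 4 peaks overlapped, and none reached that of peak 3. The next coding gene on the far side, Golga4, was 59.5 kb or more from each of the 5 summits.

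T (chromosome 17, 8627288 to 8635361, plus strand) encodes Brachyury, the founding T-box factor. Its 3 peaks lay on both sides of the gene, over 35.2 kb. Peak 1 (8614501 to 8614911) was 12.6 kb upstream in an intron of T2, an annotated processed transcript, with a fold of 11.8 (interval 9.39 to 14.7) from 79 fragments. Peak 2 (8622352 to 8622693) was the summit closest to a TSS among all 10, 4.77 kb upstream, with a fold of 8.35 (5.97 to 11.4) from 38 fragments. Peak 3 (8649765 to 8650039) was 22.1 kb downstream, with a fold of 8.09 (5.61 to 11.3) from 32 fragments, the shallowest of the 10. The 3 intervals overlapped, so the T peaks could not be ranked at this depth. The flanking coding genes are Sft2d1 and Pde10a, and no summit was closer than 68.3 kb to the TSS of another coding gene.

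Mesp1 and Mesp2, a pair of related basic helix-loop-helix genes, are divergent neighbours on chromosome 7 with TSSs 16.9 kb apart, Mesp1 at 86937127 to 86938674 (minus strand) and Mesp2 at 86955613 to 86958317 (plus strand). Wdr93 and Anpep flank the pair. The single peak between them (86943415 to 86944231) was 5.10 kb upstream of Mesp1 and 11.8 kb upstream of Mesp2, and was therefore assigned to Mesp1 alone. It had a fold of 8.01 (interval 5.97 to 10.5) from 49 fragments. It was broad, 817 bp against a median of 397 bp in the list, and 5.20% of peaks were wider. Of all peaks, 72.7% had a higher fold.

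Mixl1 (chromosome 1, 182623174 to 182627165, minus strand), a target of Nodal signalling in the streak, lies between Lin9 and Acbd3 and had a single peak 12.5 kb upstream (182639510 to 182639849). It had the lowest fold of the 10, 6.93 (interval 5.36 to 8.82), from 64 fragments. Its pileup was the third deepest of the 10, above the list median of 53 fragments, and its local background of 8.38 fragments was the highest of the 10. The median local background was 4.72 fragments for the peaks of chromosome 1 and 3.67 for the whole list. What part this background had in the low fold was not tested.

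Distances just inside and outside the 10 kb rule were as follows. The peaks inside were 4595 bp from the body of T and 4741 bp from that of Mesp1. Just outside, the same Mesp1 peak was 11382 bp from the body of Mesp2. Next came peaks 12345 bp from Mixl1 and 12377 bp from T.

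Across the 10 peaks, the median fold was 8.63 against 11.1 in the whole list, and folds ranged from 6.93 to 25.6. A fold of at least 10 was reached by 4 of the 10, beside 56.6% of all peaks. Those were Eomes peaks 3, 4 and 5 and T peak 1. A −log10 q of at least 50 was reached by 2, Eomes peak 3 and T peak 1, beside 40.6% of all peaks. Below the list median lay 7 of the 10 folds, but 6 of the 10 intervals contained that median, so those peaks could not be placed above or below it. With the local background held fixed, the intervals of the Mesp1 peak, Eomes peak 2 and the Mixl1 peak lay wholly below it. Error in the background would widen them, so these placements are not settled. When the 10 were ordered by fold, all neighbours overlapped except Eomes peak 3 and T peak 1, at the top. The intervals of T peak 1 and the Mixl1 peak, at the other end, did not overlap, again with the background held fixed. Only Eomes peak 3 exceeded the upper quartile of the list, 20.1. The median pileup was 49.5 fragments, close to the 53 of the list, while the median local background was 4.72 fragments against 3.67. The median width was 421.5 bp.

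**Figure D2:**
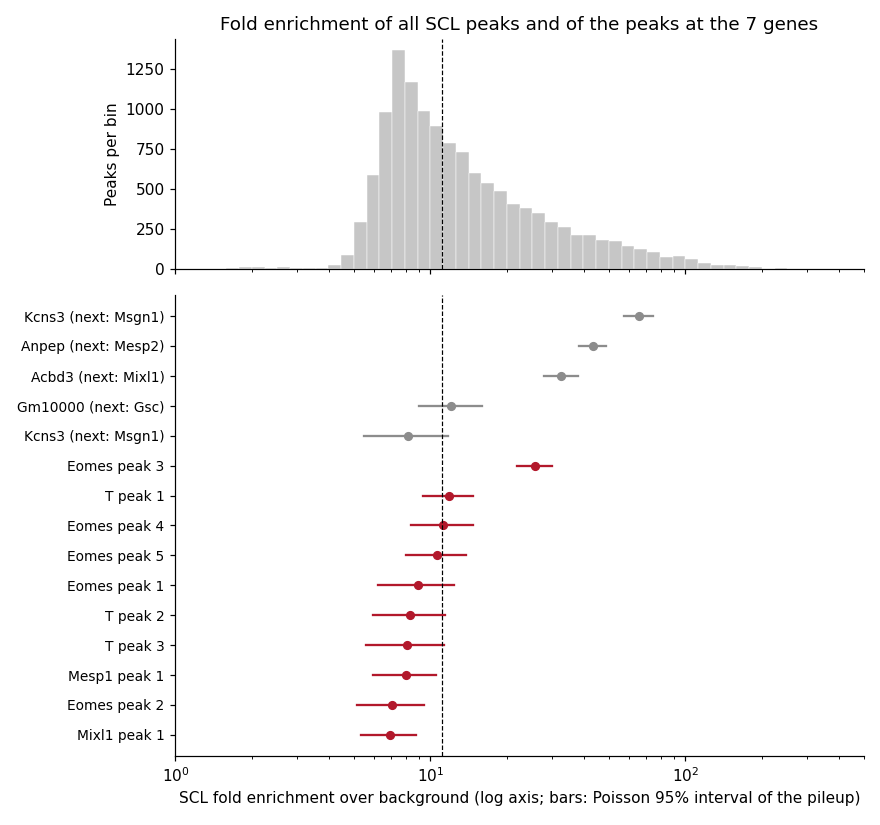
Fold enrichment of all 12885 peaks as a histogram (top, log axis) and of single peaks with their counting intervals (bottom). Red points are the 10 peaks of the 7 genes and grey points the 5 peaks for which one of the genes is the next nearest, named by their nearest coding gene. The dashed line is the list median of 11.1, and Eomes peak 3 alone among red points has an interval wholly above it.

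The distance of the peaks from start sites was close to that of the whole list. A summit more than 5 kb from any coding TSS was found for 9 of the 10, beside 79.3% of all peaks, and 9 of 10 summits were intergenic, beside 51.1%. Of the 10, 9 were upstream of the nearest TSS, beside 48.9% of all peaks, and 5 of these 9 belong to Eomes alone. The median distance to the TSS was 26.8 kb, against 24.1 kb in the list. Another summit lay within 12.5 kb for 5 of the 10, beside 34.5% of all peaks. These were Eomes peaks 4 and 5, T peaks 1 and 2 and the Mixl1 peak, whose neighbour is the Acbd3 peak.

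The genes without a peak of their own had peaks in the same neighbourhood. Gsc (chromosome 12, 105709419 to 105711537, minus strand) lies 1.16 kb from Gm10000, a predicted coding gene. On one side of it SCL bound at 105730168 to 105730839, with a fold of 12.1 (interval 8.99 to 15.9) from 49 fragments, 18.9 kb upstream of the TSS of Gsc and 17.8 kb from that of Gm10000. The difference of 1161 bp decided its assignment, and without coding genes named only as Gm or Rik models the peak would be counted at Gsc. No GATA motif or E-box was in its summit window. On the other side of Gsc, towards Serpina3n, the closest summit was 73.2 kb downstream, at 105638170 to 105638409, with a fold of 7.28 from 24 fragments. The study, by its own assignment of peaks, names Gsc with Mixl1 and T among the genes that SCL binds and represses.

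Beyond Mesp2 lay a stronger peak, at 87003247 to 87003824, whose fold was 43.4 (interval 38.4 to 48.9) from 270 fragments. It was 48.0 kb downstream of the Mesp2 TSS and 10.5 kb from that of Anpep, the nearest coding gene. Beside Mixl1, 168 fragments at 182644290 to 182644696 gave a fold of 32.6 (27.8 to 37.8), 17.3 kb upstream of Mixl1 and 11.7 kb from Acbd3. It lay 4.75 kb from the Mixl1 peak, and its fold was higher beyond the counting intervals of both.

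Msgn1 (chromosome 12, 11215188 to 11215754, minus strand), between Kcns3 and 1700034J04Rik, was of the 7 the gene farthest from any summit, with none within 50 kb. Its closest, at 11133085 to 11133720 in an intron of Kcns3, was 82.4 kb downstream and had a fold of 65.7 (interval 57.7 to 74.5) from 243 fragments. A second peak for which Msgn1 was the next nearest gene, at 11095879 to 11096104, had a fold of 8.15 from 27 fragments. On its upstream side the closest summit was 182.9 kb away in an intron of Vsnl1 (11398361 to 11398743), with a fold of 7.18 from 25 fragments. Of the 5 peaks for which one of the 7 genes came next after the nearest coding gene, 3 had a higher fold than every one of the 10 assigned peaks. By counting intervals this held for those in Kcns3 and near Anpep, while that near Acbd3 overlapped Eomes peak 3.

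A wider view counted summits by distance alone. Within 50 kb of a TSS, T had 3, Mesp2, Eomes and Mixl1 had 2, Mesp1 and Gsc had 1 and Msgn1 had 0. That is at least 1 for 6 of the 7 genes, beside 44.4% of all coding genes. Within 100 kb all 7 had at least 1, beside 62.8%, and T and Eomes had 4. The same peak is counted for both Mesp genes here. The stretches of genome nearest to the TSSs of the 7 genes summed to 0.441 Mb and held 22.7 peaks per Mb, against 4.85 per Mb over the genome, which includes long gene-poor stretches. For the single genes the density was 32.4 at T, 29.6 at Mesp1, 28.0 at Eomes and 23.6 at Mixl1. The density of T rests on 3 peaks and those of Mesp1 and Mixl1 on 1 each.

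The letters under the summits were counted next, since SCL is known to bind DNA in a complex with GATA factors and E proteins. The GATA motif was within 50 bp of 7 of the 10 summits, beside 73.2% of all peaks. It was absent from Eomes peak 5, the Mesp1 peak and T peak 1. The E-box was in 5 of 10, beside 52.6%, and windows 1 kb away held it in 42.4%. The composite of CTG and GATA was in 2 of 10, beside 32.9% of all peaks and 3.07% of the windows 1 kb away. Both were Eomes peaks, peak 1 with 8 bases between the letters and peak 3 with 9. Of the 5 peaks for which one of the genes was next nearest, 2 carried it, the Acbd3 and Anpep peaks shown above, each with 9, and the strongest, in Kcns3, did not.

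The GATA motifs closest to a summit began 5, 6 and 7 bp after it in Eomes peak 4, the Mixl1 peak and Eomes peak 3. In T peak 3 the motif began 10 bp before the summit. Farther GATA motifs began 16 and 19 bp after the summit in Eomes peaks 1 and 2. That of T peak 2 and another of Eomes peak 3 began 43 and 38 bp before it. On the strand of the motif, those of the Mixl1 peak, Eomes peak 3 and T peak 3 read AGATAA and that of Eomes peak 4 read TGATAA. Eomes peak 1 had the E-box CATCTG across the summit itself, and Eomes peak 3 had the same letters 43 bp away. The Mesp1 peak was the only one of the 10 with neither motif, as were 12.1% of all peaks. The ETS letters AGGAA were in 4 of 10, beside 51.9% of all peaks. The letters CCAACC, searched for KLF factors, were in 0 of 10, beside 4.23%. The counts are of letters on both strands and do not show which protein bound.

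**Figure D3:**
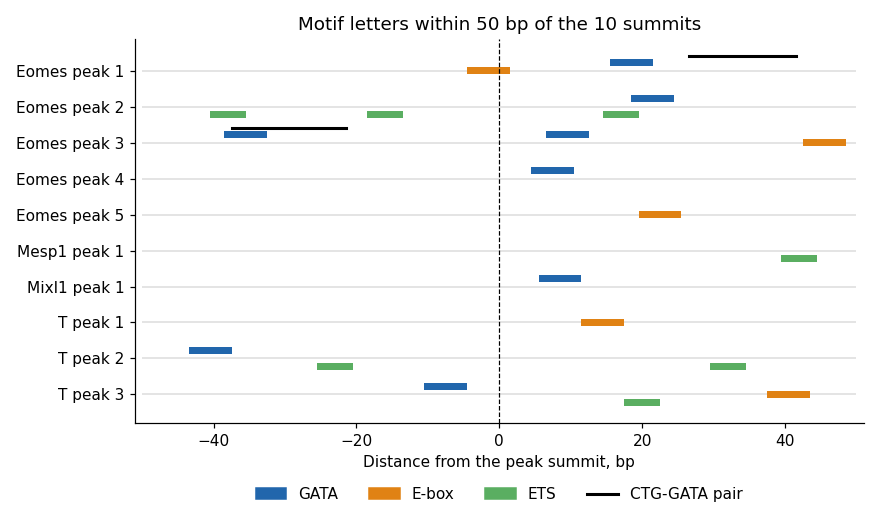
Motif letters within 50 bp of the 10 summits. The horizontal axis gives the distance from the summit in bp, blue bars are GATA motifs, orange bars E-boxes, green bars ETS letters and black lines CTG and GATA pairs. The pair is in Eomes peaks 1 and 3, and the Mesp1 peak has no blue or orange bar.

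Genes that work around these factors were then described from a list of 45, in 5 roles. Of these, 25 (55.6%) had at least 1 nearest peak and 20 had none, beside the 28.9% of all coding genes given above. The 25 held 68 peaks with a median fold of 10.5, of which 35 (51.5%) reached a fold of 10, beside 56.6% of all peaks. The composite of CTG and GATA was in 25 of the 68 (36.8%), beside 32.9% of all peaks. The counts by role that follow are of nearest peaks, and Tbx6, Tdgf1 (the Nodal co-receptor) and Lefty2 had none of these but 1 peak each within 10 kb of the gene body. Among the 14 other T-box genes, 8 had a nearest peak. Tbx3 had 11, the strongest with a fold of 55.0, and Tbx5, a cardiac and limb factor, had 7 with a fold of up to 40.9. The 28 peaks of the other T-box genes had a median fold of 8.65.

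Of the 8 genes for inducing ligands and the Nodal co-receptor, 4 had a nearest peak. Bmp4, which induces posterior mesoderm, had 3, with a fold of up to 58.1 at a peak 183.0 kb from the TSS, and Wnt3, needed to start the streak, had 2, with a fold of up to 25.7. Of the 6 antagonists, Cer1 had 1 peak with a fold of 26.8, Nog had 1 with a fold of 8.15, and 4 had no nearest peak. Of the 5 mediators that carry these signals to DNA, 4 had a nearest peak. Smad2 and Smad3, effectors of Nodal, had 3 each, with folds of up to 41.2 and 20.6.

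Of the 12 genes for regulators and targets in cells derived from the streak, 7 had a nearest peak, and these peaks had the highest median fold of the 5 roles but the antagonists, whose median of 17.5 rests on 2 peaks. That median was 16.8 over 23 peaks. Lhx1, a regulator of the anterior streak and head organiser, had 7 peaks, the strongest at 84406274 to 84407161 (chromosome 11) reaching a fold of 98.8. Zeb2, a repressor active in epithelial to mesenchymal transition, had 9, with a fold of up to 77.1. Either fold exceeded the 25.6 of the strongest peak of the 7 genes. By density, Lhx1 held 46.0 peaks per Mb and Zeb2, with its long surroundings, 4.62. All 45 listed genes held 7.69 per Mb, against 4.85 over the genome.

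**Figure D4:**
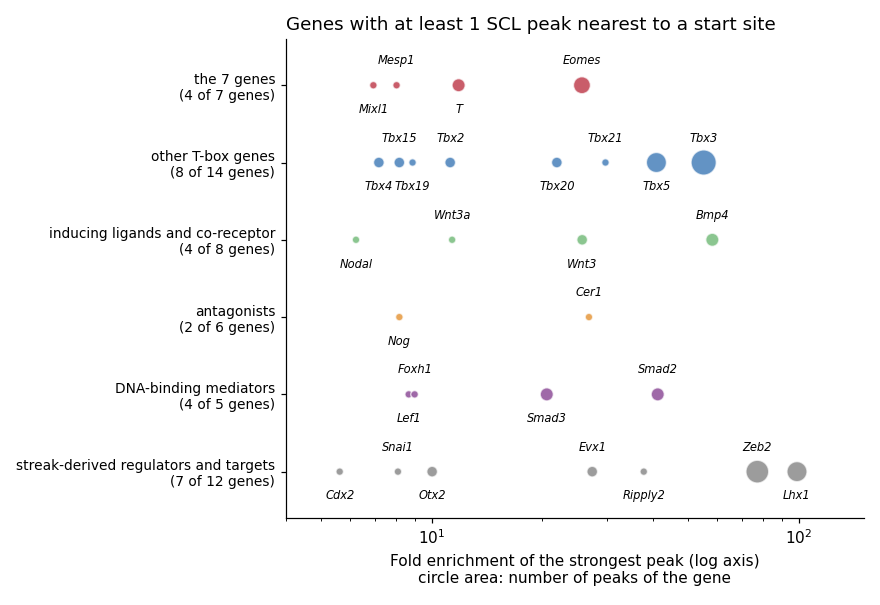
Fold enrichment of the strongest peak of each gene with at least 1 nearest peak, on a log axis, for the 7 genes and for 45 genes in 5 roles. Circle area is the number of peaks of the gene. Genes with no nearest peak are not drawn, and the row labels give how many of each role are. The 7 genes reach a fold of 25.6, at Eomes, while Lhx1 reaches 98.8.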

How the data were processed

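SCL ChIP-seq was analysed from the deposited narrowPeak list of 2 ChIP and 2 input libraries. The authors aligned reads to mm9 with Bowtie 1.1.2, removed duplicates, called peaks with MACS2 2.0.10 and set the list by irreproducible discovery rate on the merged replicates. The fold enrichment (a ratio of ChIP to local background), the −log10 p and the −log10 q of each peak are the authors' MACS2 values. The deposited score was not used further. The list holds more peaks than the bound loci counted in the study's text. The methods name a later filter of peaks in a genome viewer without its settings, which was not applied here, and shares of all peaks refer to the whole list.

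Summit pileup and local background were solved from fold and −log10 p, taking fold as (pileup + 1) / (background + 1). A whole pileup matched to within 0.001 in 99.9% of peaks. This solver and the gene assignment were tested on simulated data. Genes and TSSs came from GENCODE vM1 and sequence from NCBIM37, the same build as mm9. Coordinates count from 1. Motifs were searched within 50 bp of summits and in windows 1 kb away. Work was done in Python 3.11.15 with pyfaidx 0.9.0.4.

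All 7 genes and each of their peaks are named. In each role of the gene list, the 2 genes with the most peaks and the 2 with the highest folds are named, and flanking coding genes and the closest peaks on each side of a gene without one are given. The members and lists were chosen with earlier results of these data known. No test was made, because the list is 1 pooled call without values per library. Alternatives were other TSS sets, windows and peak thresholds.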

Additional observations from a re-analysis of the deposited data

How the results depend on the processing

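No paired analysis was possible because replicates were merged before peaks were called, and leaving out a replicate could not be done for the same reason. Of 36 alternative values 20 stayed within 1.5 times the count, or within the interval of 7.05 to 11.8 set for the median fold, and 16 moved. TSSs of other gene types, 1 TSS per gene and peak midpoints all gave 10 peaks, the next nearest gene raised this to 15, and leaving out Gm and Rik models, chosen after seeing the data, gave 11.

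A fold of at least 10 left 4 of the 10 nearest peaks, 0 within 10 kb and 9.07 peaks per Mb (2.75 over the genome). In those 4 peaks GATA was in 2, the E-box in 3, the CTG and GATA pair in 1 and the ETS letters in 0, and the gene list kept 35 peaks. Motif shares of all peaks at that fold are not given here, so these motif counts cannot be set against a background. A −log10 q of at least 50 left 2 nearest peaks with a median fold of 18.7 and 0 within 10 kb. These thresholds remove weak peaks by construction. With 50 kb around the gene body there were 10 peaks, some of them assigned to other genes, and the gene list had 32 within 10 kb. Windows of 100 bp on each side held the E-box in 9 summits, beside 73.6% of all peaks. Those of 25 bp held it in 3, beside 33.0%, and the pair in 0, beside 19.0%. Apart from Eomes peak 3, the peaks rest on 32 to 79 fragments, and neighbours in the order of fold had overlapping intervals.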
